A study of Drosophila melanogaster with 9 samples.

Results

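The 32 genes described here carry the recognition of microbes and the signalling of the Toll and Imd pathways of Drosophila melanogaster. They were chosen by symbol, and each was found by its FlyBase identifier in the table of read counts per gene. That table listed 17490 genes, and 12963 of them passed a filter on low counts and were tested, all 32 members included. By role, 11 members belong to protein families that recognise microbial cell walls, and 5 form or restrain the protease cascade outside the cell. Of the others, 2 are the Toll ligand and receptor, 6 act in the cytoplasm in the Toll pathway and 8 in the Imd pathway.

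RNA was sequenced from whole heads of flies that had lived alone for 7 days, alone for 1 day or in a group for 7 days. No group was housed for 1 day. Flies of 1 day alone thus differ from group in both housing and its length, which cannot be told apart. The difference between the isolation times likewise has no group-housed counterpart. All flies had the same genotype, wild type Canton-S w1118 (iso1CJ), and the heads were taken between ZT0.5 and ZT2, soon after the lights came on. Each of the 3 conditions had 3 libraries of 200 pooled heads, called replicates 1 to 3 as in the labels. The labels give no sex or age and do not say that the replicates came from separate cultures, so p-values measure only the spread between these libraries, which may be technical.

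In the Toll pathway, secreted peptidoglycan recognition proteins (PGRPs) and glucan binding proteins (GNBPs) bind cell wall material of Gram-positive bacteria and fungi and start a chain of serine proteases that cuts Spätzle, the ligand of the receptor Toll. In the Imd pathway, other PGRPs bind the peptidoglycan of Gram-negative bacteria directly and signal through the adaptor Imd. Both end in transcription factors of the NF-κB family (Dif and Dorsal for Toll, Relish for Imd), which switch on genes of antimicrobial peptides, above all in the fat body, a tissue that also lies inside the head.

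Library totals were 39698143 to 53514747 counts, and members had 36 (PGRP-SC2) to 14846 (nec) counts in a library. The totals of 1 day alone, at 39698143 to 41404688, were all below those of 7 days alone and group, at 47381611 to 53514747. Depth and 1 day alone thus cannot be told apart, and the part of depth in the changes was not tested. Levels are in CPM, which scale each library to a common total, and per kilobase of exon where genes are compared with each other. Transcripts of gut and male reproductive tract, which head tissue should lack, were present in 5 of the 9 libraries (replicates 1 and 3 of 7 days alone, 1 and 2 of 1 day alone, 2 of group). The gut markers summed to 281 to 679 CPM in these 5 and to 0.473 to 1.47 CPM in the other 4, with gammaTry and LysD at 0 everywhere; a count of 0 allows up to 3 counts, which covers counting error only. The male tract markers summed to 237 to 501 CPM in the 5 and to 0.563 to 1.71 CPM in the 4. Cyp4g1, a marker of oenocytes, which lie under the body wall of the abdomen, ranged over 546 to 1622 CPM where gut transcripts were present and over 0.86 to 1.58 CPM where they were not. Desat1, the other oenocyte marker in the table, did not follow it. Its raw counts were 126954 to 186247 where gut transcripts were present and 122174 to 204613 where they were not. All 4 neuron markers in the table were above 0 in every library and summed to 2625 to 3030.4 CPM. Replicate 3 of 1 day alone was the highest of its group for 24 of the 32 members, while 44.4% of all tested genes had their highest value of that group there. Changes are therefore given without and with a term in the model for gut and male tract transcripts, here called the body tissue term. Where values are given within the libraries with body tissue, they compare 2 libraries of 7 days alone, 2 of 1 day alone and 1 of group. Those within the libraries without it compare 1 library of 7 days alone, 1 of 1 day alone and 2 of group, so the isolation times stand there 1 library against 1, with no replicate check.

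Most members were expressed at a moderate level that varied little. Per kilobase, 28 of 32 lay above the level of the median tested gene. The highest were nec, which encodes the serpin Necrotic, at a mean of 164 CPM per kilobase, PGRP-SD, a secreted recognition protein, at 131, and SPE, the protease that cuts Spätzle, also at 131. The lowest were Fadd, an Imd adaptor, at 5.38, PGRP-SC2, an amidase that degrades peptidoglycan, at 5.55, and pirk, an inhibitor of Imd signalling, at 6.15. In 27 of the 32 the highest library was less than 1.5 times the lowest. The median of that ratio was 1.31 for the members and 1.4 for the 11447 tested genes above 0 in every library.

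**Figure D1:**
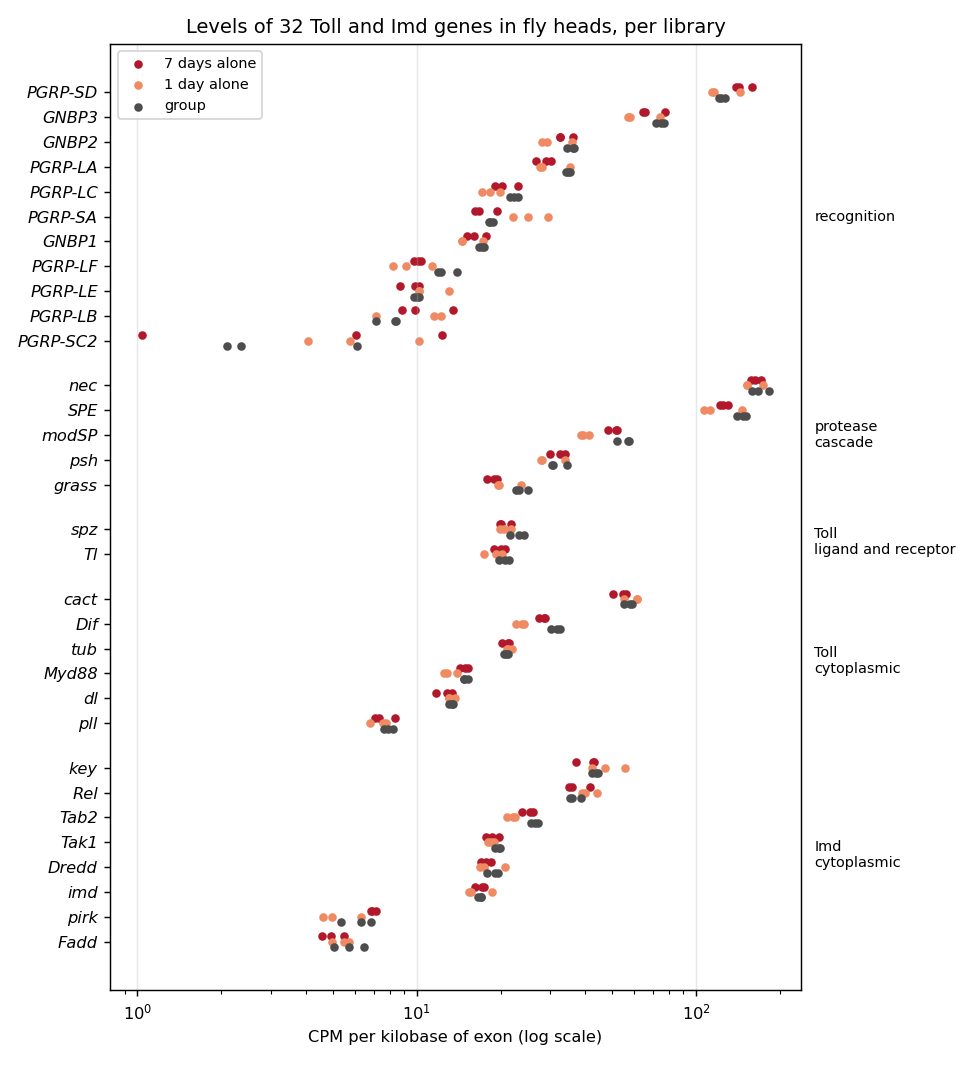
CPM per kilobase of exon (log axis) of the 32 members in each of the 9 libraries, ordered by role and by mean level, with 7 days alone above 1 day alone and group in each row. PGRP-SC2 spans 1.04 to 12.3, whereas tub spans 20.2 to 21.9.

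After 1 day alone, 3 members were lower than in group-housed flies and none was higher by the edgeR quasi-likelihood test with Benjamini-Hochberg adjustment over all tested genes. They were modSP, Dif and Tab2, at log2 changes of -0.48, -0.42 and -0.28. Of all tested genes, 2.71% were called lower in that comparison. With the body tissue term PGRP-LC was also lower, which made 4 members lower (3.27% of all genes), and PGRP-SA was higher (2.35% of all genes). After 7 days alone no member differed from group in edgeR or limma-voom, where edgeR called 0.301% of all genes. In that comparison 5 members had an unadjusted p under 0.05, where 825 of the 12963 tested genes did. DESeq2 called 1 member, grass (log2 change -0.32, adjusted p = 0.00632), and 330 of 11193 genes. With the body tissue term PGRP-SD was higher (0.933% of all genes). Between the isolation times modSP, Dif, Tab2 and Myd88 were higher at 7 days (3.11% of all genes) and PGRP-SA was lower (1.51%). With the body tissue term 6 members were higher at 7 days (4.49%), with PGRP-SD and PGRP-LC added, and PGRP-SA alone was lower (2.41%). The F test across all 3 groups together called modSP, Dif and Tab2, against 4.49% of all genes. No test set the members against other genes. In the 5 libraries with body tissue alone, no member was called against group at either time, where edgeR called 0.0371% of all genes at 7 days and 0.646% at 1 day alone. In the 4 without it 7 members were called at 7 days and 15 at 1 day alone against group, where 7.43% and 50.4% of all genes were.

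**Figure D2:**
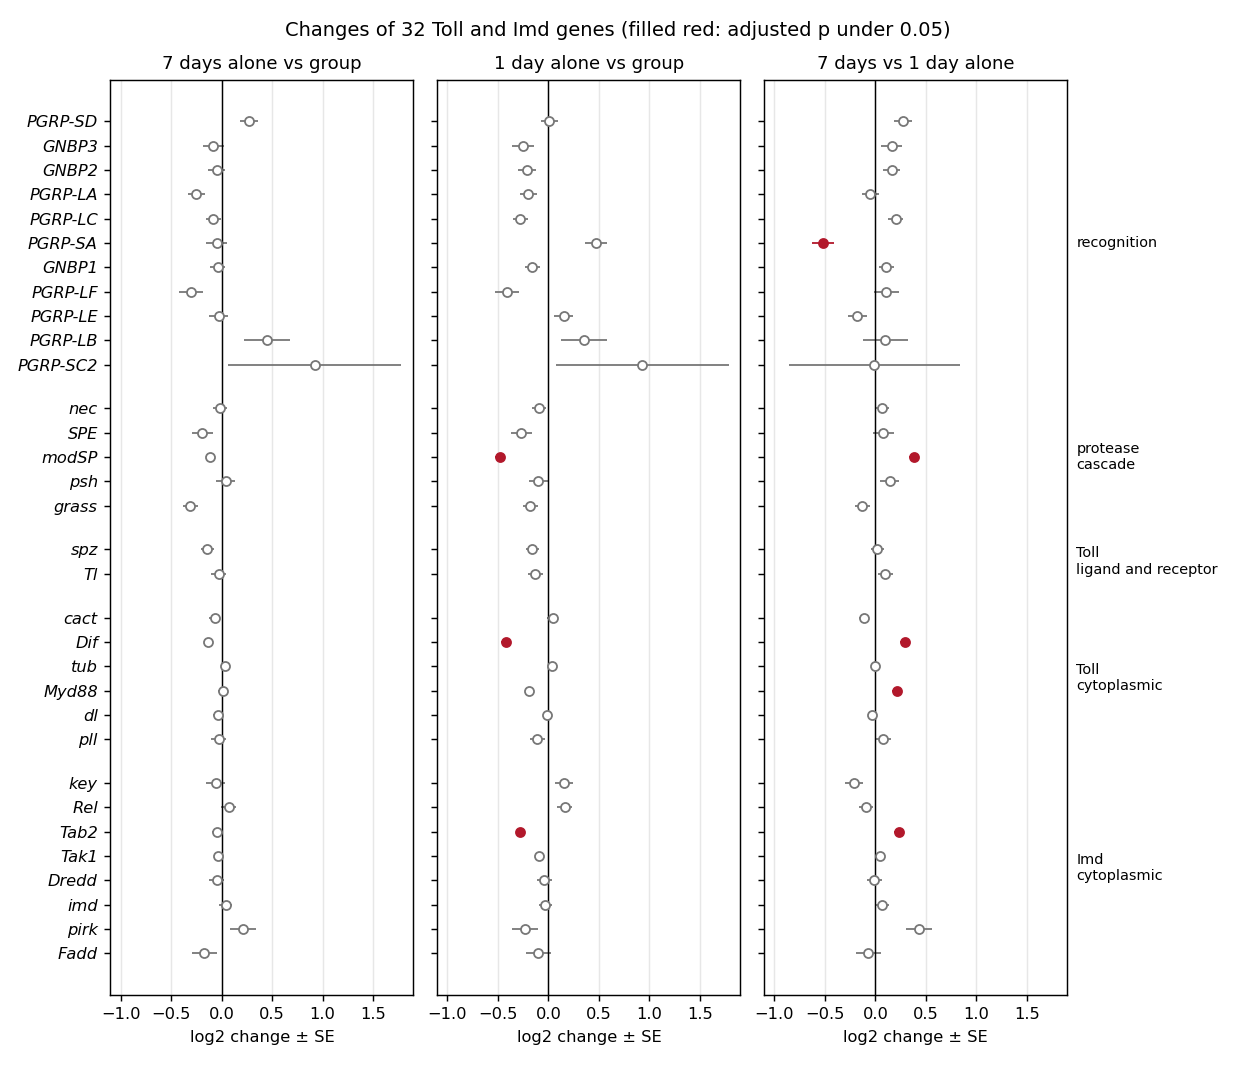
log2 change ± SE of each of the 32 members in the 3 comparisons without the body tissue term, by role, with adjusted p under 0.05 in filled red. No member is red at 7 days alone against group, 3 are red and below 0 at 1 day alone against group, and 5 are red between the isolation times, of which PGRP-SA alone is below 0.

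Small shifts below the group level were common among the members. At 1 day alone against group, 23 of 32 had a negative log2 change and the median was -0.103, against 0.034 over all tested genes, of which 55.6% were above 0. With the body tissue term 23 were negative as well, with a median of -0.094, and without replicate 1 of 1 day alone 17 were, with a median of -0.031. Over all genes the medians of these fits were 0.025 and 0.118, with 54.2% and 67.6% above 0. At 7 days alone against group, 23 of 32 were negative and the median was -0.046, against 0.014 over all genes, of which 53.9% were above 0. With the term 18 of 32 were negative and the median was -0.026, against 0.021 over all genes, of which 55.9% were above 0. Both comparisons use the same group libraries. Between the isolation times 21 of 32 were positive, with a median of 0.073 against 0.037 over all genes, of which 57.8% were above 0. Without replicate 1 of 1 day alone, 14 of 32 were positive and the median was -0.042. Over all genes that median was -0.008, with 49% above 0. All 5 members of the protease cascade were negative at 1 day alone against group, from -0.48 for modSP to -0.09 for nec, and only modSP passed the test.

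Longer genes had lower changes after 1 day alone. Across all tested genes the Spearman correlation of the log2 change with exon length was -0.407 at 1 day alone against group, -0.266 at 7 days alone against group and 0.129 between the isolation times, where genes are not independent replicates. Dif has 5695 bases of exon, Tab2 3976, modSP 2289 and PGRP-SA 1018, against a median of 1782 for all tested genes. With the trend over length subtracted, the 1-day changes against group were -0.46 for modSP, -0.30 for Dif, -0.20 for Tab2 and 0.40 for PGRP-SA, and all 4 were called (edgeR, adjusted p = 0.00228, 0.00689, 0.00911 and 0.0422). The part of length in these changes was not tested further, and a correlation of -0.189 was still there after the subtraction.

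Libraries of the compared groups did not overlap for several more members. The libraries of 7 days alone lay wholly above group for 3 members (PGRP-SD, PGRP-LB and pirk), where 4.8% of all genes did, and wholly below for 6 (PGRP-LA, PGRP-LF, modSP, grass, SPE and Dif), where 12.3% did. Those of 1 day alone lay above group for 3 members (PGRP-SA, PGRP-LE and Rel; 9.38% of all genes) and below for 7 (PGRP-LC, PGRP-LF, modSP, Myd88, Dif, Tak1 and Tab2; 15.1%). The 7-day libraries lay above the 1-day ones for modSP, Myd88, Dif, Tab2 and pirk (9.47% of all genes) and below for PGRP-SA, PGRP-LE and grass (10.2%).

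Among the recognition genes, PGRP-SA was the one called without the body tissue term. It encodes the secreted receptor for peptidoglycan of Gram-positive bacteria upstream of Toll. PGRP-SA was at 17.0, 19.7 and 16.5 CPM in replicates 1 to 3 of 7 days alone, at 25.4, 22.5 and 30.1 CPM after 1 day alone and at 18.4, 18.5 and 19.1 CPM in group. Every library of 1 day alone was above all the other 6, and the 7-day and group libraries overlapped. PGRP-SA was lower at 7 than at 1 day alone by a log2 change of -0.52 (SE 0.106; edgeR, adjusted p = 0.0402). Against group, the 1-day change was 0.47 (SE 0.106) and missed the threshold at an adjusted p of 0.0587; with the body tissue term it was 0.53 (SE 0.0789; adjusted p = 0.00687), and the term brought the adjusted p between the isolation times to 0.00508. Among the libraries with body tissue alone the 7-day minus 1-day difference of PGRP-SA was -0.54, and among those without it, 1 library against 1, -0.59. Without the term that call was kept without replicate 2 or 3 of 1 day alone (adjusted p = 0.0363 and 0.0159) and lost without any of the other 7 libraries (0.0522 to 0.274), with no filter (0.058), with a block for the replicate number (0.14) and when only the groups compared were fitted (0.179). With the term both PGRP-SA calls held without each library of the groups compared. In simulated data the share of false calls with the term lay above the threshold, so these calls are less firm than their adjusted p.

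PGRP-SD, a secreted partner of PGRP-SA in sensing Gram-positive bacteria, followed another pattern. It was at 102, 114 and 100 CPM after 7 days alone, at 83.4, 81.9 and 104 CPM after 1 day alone and at 88.5, 86.8 and 91.3 CPM in group. All 7-day libraries were above the group ones, whereas replicate 3 of 1 day alone stood among the 7-day values. At 7 days alone against group its log2 change was 0.27 (SE 0.0878; edgeR, adjusted p = 0.496), and with the body tissue term 0.33 (SE 0.0582; adjusted p = 0.038). With the term PGRP-SD was also higher at 7 than at 1 day alone, by 0.27 (adjusted p = 0.0244). Neither call of PGRP-SD was made with both the term and a block for the replicate number (0.162 and 0.0785). With the term, leaving out any library of the groups compared ended the PGRP-SD call against group, and the call between the isolation times was kept without replicate 3 of 1 day alone (0.00469) and lost without each of the other 5 libraries of these groups (0.0845 to 0.273). The 1-day replicate 3 bears on this gene. Without it, and without the term, PGRP-SD was called at 7 days against group (0.27; edgeR, adjusted p = 0.0243). In the same fit it was called between the isolation times (0.31, adjusted p = 0.00737). Of 13187 genes, that fit called 193 at 7 days against group and 1167 between the isolation times.

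PGRP-LC is the main membrane receptor of the Imd pathway. It was at 72.9, 83.6 and 68.8 CPM after 7 days alone, at 61.9, 66.2 and 72.0 CPM after 1 day alone and at 83.3, 78.2 and 80.7 CPM in group. The 1-day libraries were below all group libraries, and the 7-day ones overlapped both. The 1-day change of PGRP-LC against group was -0.28 (SE 0.0735; edgeR, adjusted p = 0.0873), and with the body tissue term -0.23 (SE 0.0522; adjusted p = 0.0381). With the term PGRP-LC was higher at 7 than at 1 day alone by 0.20 (adjusted p = 0.0496). Both PGRP-LC calls made with the term were lost without any 1 library of the groups compared. PGRP-LC lies between PGRP-LA and PGRP-LF on chromosome arm 3L, 473 bases from the one and 1272 from the other. PGRP-LF, a membrane inhibitor of Imd signalling, had changes of -0.30 after 7 days and -0.41 after 1 day alone against group (edgeR, adjusted p = 0.731 and 0.117); 44.4% of its exon bases overlap UGP on the other strand, so part of its reads could be those of UGP if counting ignored the strand. PGRP-LA, a positive regulator of Imd signalling in barrier tissues, had changes of -0.25 and -0.20 in those comparisons (adjusted p = 0.56 and 0.269).

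PGRP-SC2 was the one member that was higher in every library with body tissue than in all those without it. It was at 4.50, 0.774 and 9.15 CPM after 7 days alone, at 4.31, 7.63 and 3.04 CPM after 1 day alone and at 1.56, 4.57 and 1.75 CPM in group. The 5 libraries with gut and male tract transcripts had 4.31 to 9.15 CPM and the other 4 had 0.774 to 3.04 CPM, so the 2 sets did not overlap. Of all tested genes, 21.4% were higher in those 5 libraries without overlap. No comparison of PGRP-SC2 between housing groups passed the test, with changes of 0.92 (SE 0.853) after 7 days and 0.93 (SE 0.853) after 1 day alone against group. The members GNBP1, GNBP2, GNBP3, nec and spz were lower in the 5 libraries without overlap, where 1.25% of all genes were. Their levels were closer together: GNBP3, which senses fungal glucan, ranged over 87.3 to 110.3 CPM in the 5 libraries and over 114 to 118 CPM in the remaining 4. In bulk RNA of pooled heads, fewer cells of a type and less RNA per cell cannot be told apart.

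The other recognition genes did not pass the test in any comparison, with or without the term. PGRP-LE, an intracellular sensor, was at 18.1 to 21.1 CPM after 7 days alone, at 21.1 to 27.0 after 1 day alone and at 20.3 to 21.1 in group. PGRP-LB, an amidase that dampens Imd signalling, was at 15.8 to 23.8 CPM after 7 days alone, 12.7 to 21.6 after 1 day alone and 12.7 to 15 in group, with a 7-day change against group of 0.45 (SE 0.225). GNBP1 works with PGRP-SA, and the ratio of PGRP-SA to GNBP1 per kilobase was 1.04, 1.09 and 1.07 after 7 days alone, 1.73, 1.53 and 1.72 after 1 day alone and 1.05, 1.09 and 1.08 in group. GNBP1 and GNBP2, 386 bases apart on chromosome arm 3L and read in opposite directions, had changes of -0.16 and -0.21 after 1 day alone against group (edgeR, adjusted p = 0.342 and 0.267).

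In the protease cascade, modSP had the clearest change of all members. It encodes the modular serine protease that joins recognition to the cascade, and lies on chromosome arm 3R from 16652446 to 16655662. The gene was at 119, 118 and 111 CPM after 7 days alone, at 90.2, 88.7 and 94.9 CPM after 1 day alone and at 131, 119 and 131 CPM in group. All 1-day libraries lay below the other 6; the highest 7-day and the lowest group library both round to 119 CPM. The means were 116 ± 4.52 CPM after 7 days, 91.3 ± 3.23 CPM after 1 day alone and 127 ± 6.79 CPM in group (SD, n = 3 each). Against group modSP fell by 0.48 on the log2 scale after 1 day alone (SE 0.0461; edgeR, adjusted p = 0.00343), and it was 0.38 higher at 7 than at 1 day (SE 0.0461; adjusted p = 0.00745). The 1-day change was -0.37 among libraries with body tissue, where it was not called, and -0.48 among those without, with 1 library against 2. In all libraries together it was called without each of the 9 libraries (adjusted p up to 0.0462) and lost when only the groups compared were fitted (0.0566). The modSP difference between the isolation times was 0.34 in both sets of libraries, in the set without body tissue from 1 library against 1. The call was lost without replicate 2 or 3 of 7 days alone (0.168 and 0.159) and when only the groups compared were fitted (0.0582).

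The other 4 cascade genes gave no call by edgeR with all libraries, with or without the body tissue term. SPE was at 158, 164 and 154 CPM after 7 days alone, at 135, 142 and 185 CPM after 1 day alone and at 186, 177 and 191 CPM in group. Its 7-day libraries were below the group ones, and replicate 3 of 1 day alone was at the group level while the other 2 were the lowest of all. Without that replicate SPE was called lower than group at 1 day (-0.35; edgeR, adjusted p = 0.00383) and at 7 days (-0.19, adjusted p = 0.0424). It was also called higher at 7 than at 1 day (0.16, adjusted p = 0.0377). With all libraries these changes were -0.27, -0.19 and 0.08. Of 13187 genes, that fit called 881 at 1 day and 193 at 7 days against group, and 1167 between the isolation times. SPE and the replicate left out were picked after the values had been seen, so these calls are no separate support. The protease grass, which acts below modSP, was at 24.8 to 26.9 CPM after 7 days, 27.2 to 32.8 after 1 day alone and 31.4 to 34.9 in group, and its 7-day change of -0.31 (SE 0.0765) had an adjusted p of 0.281 by edgeR. The changes of psh, a protease that senses microbial proteases, and of nec, an inhibitor of that branch, were between -0.10 and 0.14.

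Toll ligand and receptor did not pass the test. The changes of spz, which encodes Spätzle, were -0.14 after 7 days and -0.16 after 1 day alone against group (edgeR, adjusted p = 0.819 and 0.22). Those of Tl, the receptor Toll, were -0.03 and -0.13 (adjusted p = 0.922 and 0.448). In levels, Tl was at 97.8 to 107 CPM after 7 days, 90.7 to 105 CPM after 1 day alone and 103 to 111 CPM in group, so its 3 groups overlapped.

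In the cytoplasm, the Toll pathway changed at Dif, one of its 2 transcription factors and the one that drives the peptide response of adults. Dif was at 162, 164 and 156 CPM after 7 days alone, at 138, 136 and 128 CPM after 1 day alone and at 181, 171 and 185 CPM in group. The 3 groups did not overlap, with 1 day alone the lowest and group the highest. Against group Dif fell by 0.42 on the log2 scale after 1 day alone (SE 0.0477; edgeR, adjusted p = 0.00504), and it was 0.29 higher at 7 than at 1 day (SE 0.0476; adjusted p = 0.019). The 7-day change against group was -0.13 (SE 0.0476; adjusted p = 0.638). Among libraries with body tissue the 1-day change of Dif was -0.28 (adjusted p = 0.122) and among those without it, with 1 library against 2, -0.53. Of the fits that left out 1 library, the call was lost without replicate 3 of 7 days alone (0.0534) and kept in the other 8. With the body tissue term that call held without each library of the groups compared (adjusted p up to 0.0374). With the term the call between the isolation times held in 1 of the 6 such fits (adjusted p up to 0.18). The Dif difference between the isolation times was 0.20 among libraries with body tissue and 0.38 among those without, there 1 library against 1. It was lost without group replicate 2 (0.0576), 1-day replicate 2 (0.0706) or 7-day replicate 1, 2 or 3 (0.0602, 0.251 and 0.244), with the replicate block (0.0892) and when only the groups compared were fitted (0.103).

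The related factor dl (Dorsal), better known for patterning the embryo, lies 3668 bases from Dif on chromosome arm 2L and did not follow it. It was at 86.1, 82.8 and 75.6 CPM after 7 days alone, at 88.1, 84.1 and 83.6 CPM after 1 day alone and at 86.5, 83.9 and 86.2 CPM in group. Its 1-day change was -0.01 (SE 0.0435; edgeR, adjusted p = 0.913). The ratio of Dif to dl per kilobase was 2.12, 2.24 and 2.32 after 7 days, 1.77, 1.82 and 1.74 after 1 day alone and 2.37, 2.31 and 2.42 in group.

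Myd88, the adaptor next to the receptor, was at 53.6, 55.2 and 51.4 CPM after 7 days alone, at 45.3, 46.2 and 50.5 CPM after 1 day alone and at 55.2, 53.2 and 53.4 CPM in group. The 1-day libraries were the 3 lowest, and the 7-day and group libraries overlapped. Myd88 was higher at 7 than at 1 day by 0.21 (SE 0.0418; edgeR, adjusted p = 0.0386), and its 1-day change of -0.19 against group missed the threshold (SE 0.0418; adjusted p = 0.0526). The difference between the isolation times was 0.18 among libraries with body tissue and 0.15 among those without, there 1 library against 1. The call was kept without replicate 3 of 1 day alone (0.0142) and lost without any of the other 8 libraries (0.102 to 0.504), and also with RLE or upper quartile normalization (0.0598 and 0.138), no filter (0.17), the length trend subtracted (0.209), the replicate block (0.142) and only the groups compared (0.355). With the body tissue term the Myd88 call held in 1 of the 6 fits that left out a library of the groups compared. The adaptor tub, the kinase pll and the inhibitor cact, which holds Dif and Dorsal in the cytoplasm, gave no call. In all 9 libraries tub was at 40.4 to 43.9 CPM.

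In the Imd pathway, Tab2 changed, the partner that couples the kinase Tak1 to ubiquitin chains. Tab2 was at 101, 104 and 94.4 CPM after 7 days alone, at 89.1, 87.6 and 83.5 CPM after 1 day alone and at 108, 102 and 106 CPM in group. The 1-day libraries were below the other 6, while the 7-day and group libraries overlapped. Tab2 fell by 0.28 on the log2 scale after 1 day alone against group (SE 0.0454; edgeR, adjusted p = 0.0183) and was 0.23 higher at 7 than at 1 day (SE 0.0454; adjusted p = 0.0349). The 1-day change was -0.16 among libraries with body tissue, where it was not called, and -0.37 among those without, with 1 library against 2. The Tab2 call against group was lost without group replicate 1 or 3 (0.103 and 0.0873), 1-day replicate 2 (0.0679) or 7-day replicate 2 or 3 (0.0886 and 0.117), with the replicate block (0.0743) and when only the groups compared were fitted (0.0557). With the body tissue term both Tab2 calls were lost without any 1 library of the groups compared. The Tab2 difference between the isolation times was 0.13 among libraries with body tissue and 0.34 among those without, there 1 library against 1. The call was kept without 1-day replicate 3 (0.0415) and lost without any of the other 8 libraries (0.0682 to 0.391), with no filter (0.0729), with the replicate block (0.104) and when only the groups compared were fitted (0.201).

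The other 7 Imd genes of the cytoplasm gave no call. Tak1 itself was at 69.5 to 77.6 CPM after 7 days, 71.1 to 74.4 after 1 day alone and 75.3 to 78.2 in group, with a 1-day change of -0.09 (SE 0.0364; edgeR, adjusted p = 0.246). Rel, which encodes the factor Relish, was at 123 to 146 CPM after 7 days, 137 to 154 after 1 day alone and 124 to 135 in group, with a 1-day change of 0.16 against group (SE 0.0708; adjusted p = 0.284). The inhibitor pirk was at 12.6, 12.7 and 13.2 CPM after 7 days alone, at 8.51, 9.18 and 11.6 CPM after 1 day alone and at 9.90, 12.6 and 11.7 CPM in group. Its difference of 0.43 between the isolation times, the largest positive one among the members, had an SE of 0.13 and an adjusted p of 0.125. The adaptors imd and Fadd, the caspase Dredd and key, a subunit of the kinase complex that acts on Relish, had changes of -0.21 to 0.15 over the 3 comparisons.

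**Figure D3:**
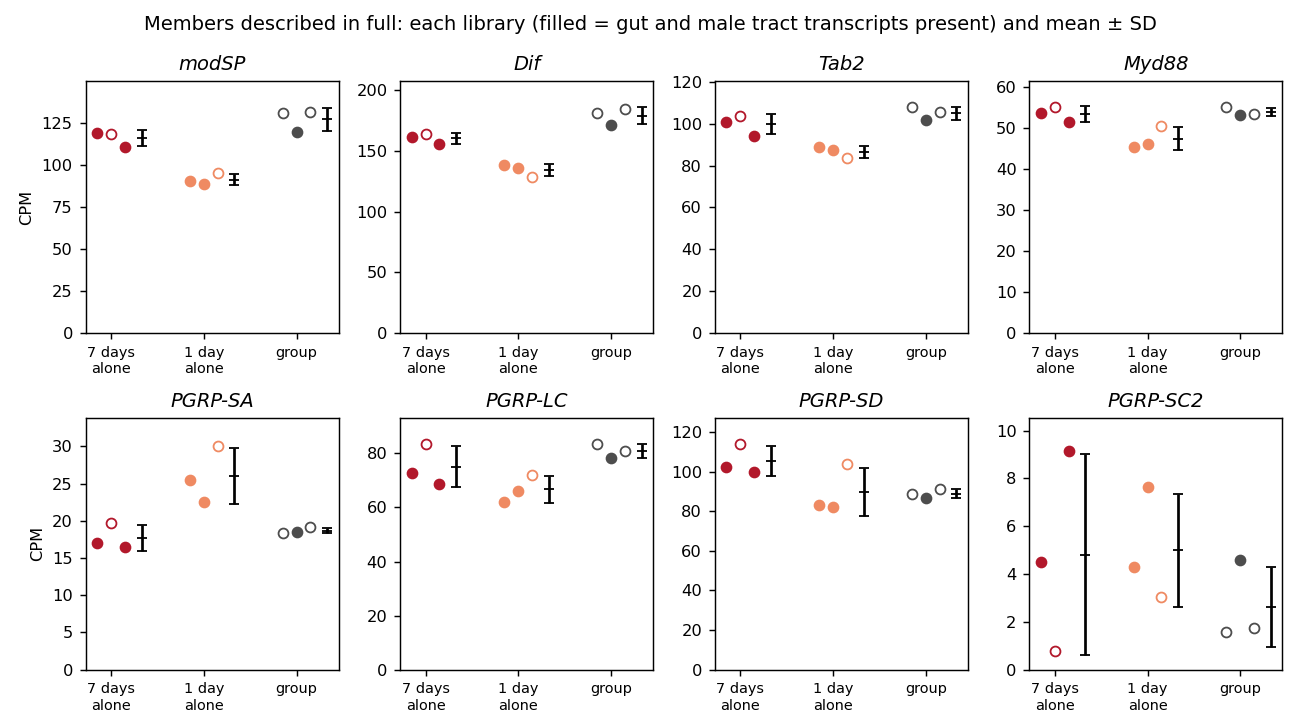
CPM of the 8 members described in full, each library as a point (filled where gut and male tract transcripts were present) with the mean ± SD beside it, for 7 days alone, 1 day alone and group. The 1-day libraries of modSP, Dif and Tab2 lie below all the others and those of PGRP-SA above, while PGRP-SC2 is higher in the filled points.

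Ratios between partners, formed within a library and per kilobase, do not depend on the scaling of the libraries. They were chosen after the values of the members had been seen, so they describe them from another side. The Tab2 to Tak1 ratio was 1.36, 1.32 and 1.35 after 7 days alone, 1.24, 1.17 and 1.14 after 1 day alone and 1.42, 1.30 and 1.34 in group. The ratio of modSP to SPE was 0.417, 0.399 and 0.397 after 7 days, 0.37, 0.345 and 0.285 after 1 day alone and 0.389, 0.373 and 0.381 in group. At 1 day the ratios of Dif to dl, Tab2 to Tak1 and modSP to SPE were below group without overlap, and that of PGRP-SA to GNBP1 was above. Each of these 4 had p = 0.1 in an exact two-sided permutation test of the log2 ratio, the smallest p that 3 against 3 allows, and 0.133 after adjustment over the 12 tests made.

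**Figure D4:**
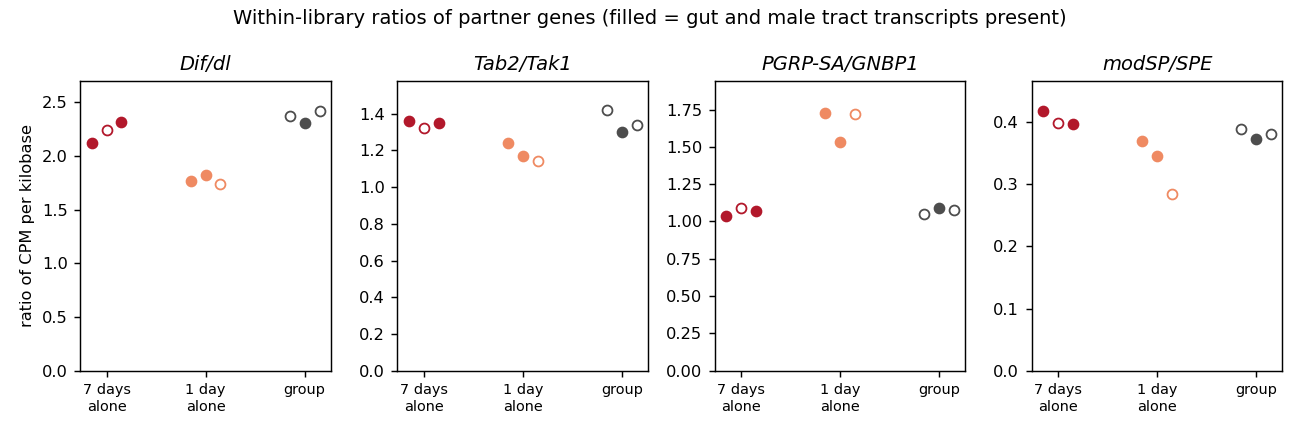
Within-library ratio of CPM per kilobase for 4 pairs of partners in the 7 days alone, 1 day alone and group libraries, each point a library (filled where gut and male tract transcripts were present). The Dif to dl ratio is 1.74 to 1.82 after 1 day alone and 2.31 to 2.42 in group, and the PGRP-SA to GNBP1 ratio is 1.53 to 1.73 after 1 day alone and 1.05 to 1.09 in group.

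Some of the other genes of both pathways passed the test. Of a list of 62 (further receptors, proteases, Toll-like receptors, cytoplasmic factors and the JNK branch), 61 were in the table and 55 were tested. None was called at 7 days alone against group, with or without the term. Over all 12963 tested genes, 39 were called in that comparison and 142 with the term. At 1 day alone against group 513 and 728 were, and between the isolation times 599 and 895. At 1 day alone 1 fell, Sp7, a protease of the melanisation cascade (-0.39; edgeR, adjusted p = 0.0314); with the term 4 rose, GNBP-like3 (0.55), PGRP-SB1 (0.47), Charon (0.58) and lwr (0.29), and Sp7 fell. Between the isolation times casp, an inhibitor of Imd signalling, was higher at 7 days (0.14), and GNBP-like3 (-0.84) and Charon, a regulator of Relish (-0.65), were lower. With the term MP1 (0.24) took the place of casp. Of the exon bases of MP1, 100% overlap Vps24 on the other strand, so its reads could be those of Vps24 if counting ignored the strand. GNBP-like3 shared its order with PGRP-SA: it was at 17.7, 16.0 and 15.6 CPM after 7 days alone, at 23.8, 30.2 and 36.2 CPM after 1 day alone and at 19.5, 21.2 and 21.8 CPM in group.

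The peptides that both pathways switch on had larger changes than the members. Of 29 such genes, all tested, none was called at 7 days alone against group. At 1 day 2 rose, Drs, the antifungal peptide Drosomycin (2.21; edgeR, adjusted p = 0.0217), and BomBc1, a Bomanin (1.77; adjusted p = 0.0183), and BomT2 fell (-0.78); with the term 8 rose and 3 fell. Drs was at 22.3, 17.4 and 15.6 CPM after 7 days alone, at 80, 154 and 141 CPM after 1 day alone and at 14.9, 29.4 and 36.2 CPM in group. Its 1-day libraries were all above the other 6. Between the isolation times 4 were lower at 7 days, Drs (-2.73), AttD (-4.08), BomBc1 (-1.48) and CecB (-3.59), and none was higher; with the term 12 were lower and 2 higher.

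Single markers of the tissues that express these genes passed the test too, while most did not. The 7 fat body markers, all above 0 in every library, summed to 10382 to 12287 CPM after 7 days alone, 8903 to 9622 CPM after 1 day alone and 9322 to 10523 CPM in group. Of these, Lsp2 was higher at 7 than at 1 day (0.65; edgeR, adjusted p = 0.0421). With the body tissue term Lsp2 was higher at 7 days alone against group (1, adjusted p = 0.00163) and at 7 than at 1 day (0.64, adjusted p = 0.0031). No other fat body marker was called, and the lowest at 7 days alone against group was Lsd-1 (-0.22). The 10 hemocyte markers, also all above 0, summed to 1034 to 1164 CPM after 7 days, 995 to 1108 after 1 day alone and 1028 to 1199 in group. Among them crq, a scavenger receptor, fell after 1 day alone against group (-0.26, adjusted p = 0.0319). Sr-CI, also a scavenger receptor, was higher at 7 than at 1 day (0.30, adjusted p = 0.0377). No other hemocyte marker was called, and 5 of the 10 were above 0 at 1 day alone against group. The 4 glia markers summed to 704 to 815 CPM after 7 days, 791 to 894 after 1 day alone and 766 to 800.5 in group. With the term alrm, a marker of astrocyte-like glia, was higher after 1 day alone against group (0.26, adjusted p = 0.0155) and lower at 7 than at 1 day (-0.32, adjusted p = 0.0042). No other glia marker was called, and 2 of the 4 were above 0 in each of these comparisons. The part of these markers in the changes of the members was not tested.

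**Figure D5:**
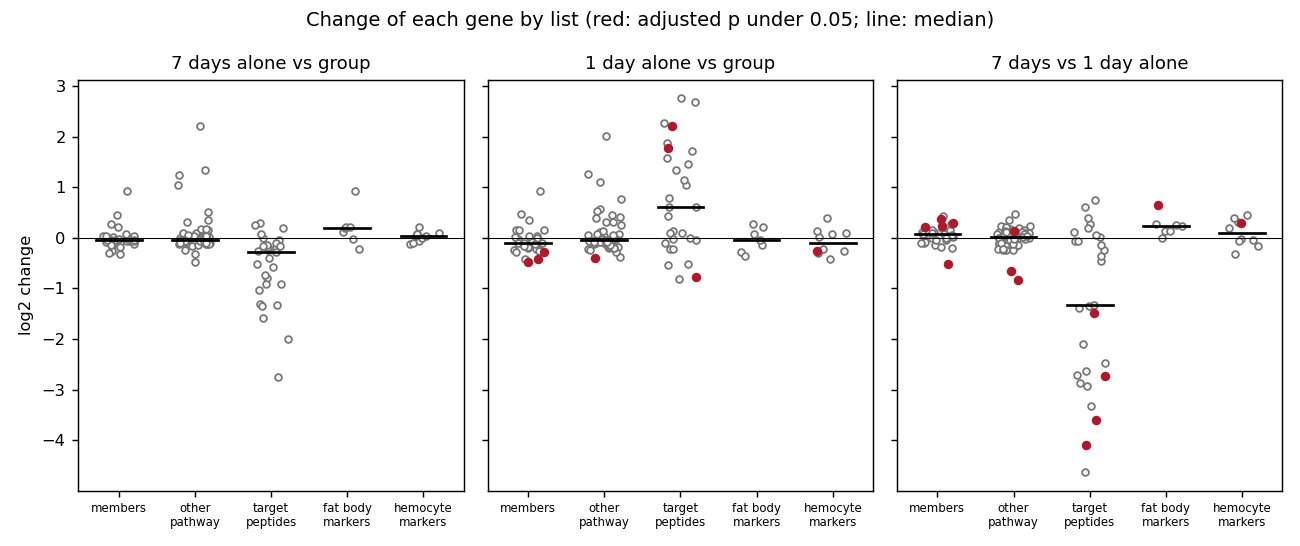
log2 change of each tested gene in the 3 comparisons for the 32 members, the other pathway genes, the target peptides and the fat body and hemocyte markers, with adjusted p under 0.05 in red and the median as a line. The target peptides spread over several log2 units, with a median of 0.61 at 1 day alone against group and -1.32 between the isolation times, whereas the members stay within -0.52 to 0.93.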

How the data were processed

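The deposited table gives raw read counts (integers) of every gene in each library, and the exon length of the gene summed over its exons. Per the submitters' processing notes, the authors used bcl2fastq 2.20, STAR 2.4.2a and featureCounts. Not given in the sources used here are the featureCounts version, the build, the annotation and how strand and multi-mapping reads were handled. Per the labels' protocols the library kit was a stranded mRNA kit. Symbols came from the Ensembl BDGP6 annotation by gene identifier (17288 of 17490 genes), and 17144 genes had the same span there. Positions are those of the deposited table.

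A single edgeR 4.0.16 model (R 4.3.3) held all 9 libraries (filterByExpr, TMM, quasi-likelihood test, group as the only term). A gene was called at a two-sided Benjamini-Hochberg adjusted p under 0.05 over the 12963 tested genes. SE is the log2 change over the root of F. CPM are counts scaled to TMM-adjusted library totals. Body tissue was called present where gut and male tract markers summed to over 50 CPM. Alternatives were upper quartile and RLE normalization, no filter, 1 CPM in 3 libraries, DESeq2 1.42.0, limma-voom (limma 3.58.1), a replicate block, only the groups compared, the body tissue term, a subtracted trend with gene length and leaving out each library. Alternatives added after seeing the data were fits of only the libraries with or without body tissue, and the term with the block or with a library left out. The fits were tested on simulated data, where the share of false calls lay under the threshold without the body tissue term and above it with the term.

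All members are named. A member is described in full if it was called with or without the term, or if its levels with and without body tissue did not overlap and differed by 1 log2 unit or more. SPE, dl and pirk are given by library as well, and were chosen after their values were seen. Of each other list, up to 4 called genes with the lowest p per comparison are named. The members, the lists and the tests were chosen with earlier results of these data known. Symbols without a match (18w, para, FASN3) are not analysed here. The replicate numbers did not pair the libraries: among genes without a body tissue effect, equally numbered libraries had deviations from their group means that correlated at r = -0.234 to 0.0423. Figures were drawn with matplotlib 3.10.9 and pandas 2.3.3 in Python 3.11.15, and exact tests were run with scipy 1.17.1.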

Additional observations from a re-analysis of the deposited data

Results flagged for a closer look

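For 5 members a difference between the isolation times was called, tested as 7 days minus 1 day alone in edgeR's quasi-likelihood test with Benjamini-Hochberg adjustment. The group libraries cancel in this difference, so it has no group-housed control for the length of housing. Over all 12963 tested genes, 599 were called in that fit. When only the groups compared were fitted, no member was called, and 32 of 12783 genes were. PGRP-SA differed by -0.52 on the log2 scale, with changes against group of -0.05 after 7 days and 0.47 after 1 day alone. For the others the change against group was the more negative after 1 day alone. modSP differed by 0.38 (changes against group of -0.11 after 7 days and -0.48 after 1 day), Dif by 0.29 (-0.13 after 7 days and -0.42 after 1 day), Tab2 by 0.23 (-0.05 after 7 days and -0.28 after 1 day) and Myd88 by 0.21 (0.01 after 7 days and -0.19 after 1 day).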

How the results depend on the processing

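Numbers of members called are given in the order 7 days versus group, 1 day versus group, the isolation times against each other and any difference, where the reported ones are 0, 3, 5 and 3. Against group after 7 days, DESeq2 and the body tissue term each called 1 and the 4 libraries without body tissue called 7. After 1 day, a filter of 1 CPM and the body tissue term each called 5, DESeq2 7, the subtracted length trend 6, only the groups compared 1, only libraries with body tissue 0 (no member had an adjusted p under the threshold) and only those without 15. Between the isolation times, no filter called 2, the term with the block 2, only libraries with body tissue 1, those without 12 and only the groups compared 0. For any difference, a filter of 1 CPM and the length trend each called 5, the term 6, DESeq2 9, only libraries with body tissue 0 and those without 17. The fit without body tissue has 1 library of each isolation time and 2 of group, with 1 residual degree of freedom, and called 827, 5606, 4718 and 5683 of 11133 genes. The fit with body tissue called 5, 87, 320 and 216 of 13471. With the replicate block the numbers were 0, 2, 1 and 1, and the cause was not tested. Over all genes the reported fit called 39, 513, 599 and 582 of 12963. DESeq2 called 330, 1561, 1505 and 1859 of 11193 to 11694. The 1 CPM filter called 61, 610, 682 and 685 of 11143 and no filter 32, 352, 348 and 356 of 16099. Of 12963 genes, the term called 142, 728, 895 and 902 and the length trend 86, 830, 927 and 930. The block called 0, 162, 126 and 117, and with the term 76, 328, 543 and 510. Only the groups compared gave 64, 133 and 32 pairwise, of 12596 to 12783.

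Leaving out each library gave 0 to 4, 1 to 10, 0 to 8 and 0 to 11 members, where 3 to 193, 137 to 881, 72 to 1167 and 90 to 1084 of all genes were called. With the body tissue term it gave 0 to 3, 3 to 7, 2 to 8 and 3 to 8 members, where 34 to 241, 241 to 784, 395 to 1218 and 407 to 973 of all genes were called. The highest number was found in each case without replicate 3 of 1 day alone. Among libraries without body tissue PGRP-SC2 turned to -1.09 at 7 days alone against group and Dredd to 0.15 at 1 day alone against group; both were uncalled with all libraries. Of 2976 changes of single members under the alternatives, 80 passed the threshold newly and 99 no longer passed it. The sign was the other one in 239, of which 237 were called in neither fit.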
